A study of Mus musculus with 4 samples.

Results

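Expression of 7 genes of the adenosine pathway was followed in CD4 T cells of the mouse gut, out of 31053 genes in the count matrices. The genes were taken by name: Entpd1, Nt5e, Ada, Adora2a, Adk, Dpp4 and Slc29a1. The cells were living CD45+CD3+CD4+ cells, negative for the dead-cell dye 7AAD, flow-sorted from the lamina propria of the small intestine of wild-type C57Bl/6 mice. The 4 libraries belong to 1 group, with no treatment, mutant or second time point, and the labels give no age. Lamina propria is the tissue under the gut epithelium, and Peyer's patches had been removed from it. Each library was made with droplet 5′ chemistry, which counts unique molecular identifiers (UMIs), tags that mark single RNA molecules. The labels do not state that 1 library held the cells of 1 mouse, so the spread between libraries may be partly technical, and the p-values measure only that spread.

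ATP released by activated or damaged cells is a danger signal outside the cell. CD39, the product of Entpd1, cuts ATP and ADP to AMP at the cell surface, and CD73, the product of Nt5e, cuts AMP to adenosine. Adenosine binds the receptor encoded by Adora2a, which raises cyclic AMP (cAMP) and restrains T cell activation. Adenosine is cleared by uptake through the nucleoside transporter ENT1, encoded by Slc29a1, by phosphorylation to AMP by adenosine kinase, encoded by Adk, and by deamination to inosine by adenosine deaminase, encoded by Ada. CD26, the product of Dpp4, is a surface peptidase and T cell co-stimulatory protein. CD39 and CD73 on regulatory T cells are known as a source of adenosine that acts on neighbouring T cells.

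Cells were split by UMIs of 5 genes, in a fixed order, so that each cell fell into the gate of the earliest condition it met. The Foxp3 gate (at least 1 UMI of the transcription factor that defines regulatory T cells) held 1533 cells, or 7.10% ± 1.27 (SD, n = 4 libraries) of a library. The Il17a gate, for the cytokine of Th17 cells, held 580 cells and the Ifng gate, for the cytokine of Th1 cells, held 6598. The Cd8a gate held 319 cells and the Gzma gate (at least 10 UMIs of the gene for granzyme A, a killer-cell protease) held 1547. The remaining 10924 cells, 50.8% ± 1.40 of a library, are called the rest gate. A droplet count misses many transcripts, so the rest gate can hold cells that express a gating gene without a UMI. The gates also overlap: 36.1% of the Foxp3 gate met a later condition, mostly Gzma (26.6%) or Ifng (11.8%). Of the Il17a gate, 28.1% also met the condition for Ifng and 13.8% that for Gzma. The condition for Gzma was also met by 22.8% of the Ifng gate and 60.2% of the Cd8a gate.

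In all, 21501 cells were analysed, 5149 to 5626 a library, with a median of 3630 to 4175.5 UMIs per cell. The libraries shared 268 cell barcodes in pairs and 2 in sets of 3. All 8 T cell markers looked up (Cd3e, Cd3d, Cd3g, Cd4, Trac, Trbc1, Trbc2 and Cd2) were at 20 or more counts per 1000000 UMIs (CPM) in every gate. Regulatory T cell markers in the Foxp3 gate included Ikzf2, which encodes Helios, at 813.7 ± 94.4 CPM against 153.6 ± 12.8 in the rest gate. Transcripts known from other cells differed between the gates. Summed myeloid markers were at 465 to 568 CPM in the Foxp3 gate and 277 to 348 in the rest gate. In the Cd8a gate they were at 131 to 2883, with Lyz2, C1qa and C1qb at 0. Cd74, an antigen-presentation gene, led these sums. In the Foxp3 gate, Cd74 (mean 254.3 against 134.6 in the rest gate) and Cst3 (213.9 against 127.2) were higher. Lyz2 (5.15 against 10.4), H2-Aa (9.59 against 25.8), C1qa, C1qb and Csf1r had lower means there than in the rest gate. Itgax was scarce in both, at 0.696 and 0.34. Summed epithelial markers were at 87.1 to 111 in the Foxp3 gate and 17.4 to 35.0 in the rest gate. Nearly all of this in the Foxp3 gate was Epcam, at 92.0 ± 12, and 9 of the 16 epithelial markers, Vil1, Fabp1 and Krt20 among them, were at 0 there. Summed gamma-delta T cell markers (4 genes, nearly all from Tcrg-C1 and Tcrg-C2) were at 91.3 to 246 CPM in the Il17a gate, 256 to 424 in the Cd8a gate and 90.1 to 211 in the Gzma gate. All were above the 46.2 to 80.7 of the rest gate, while Trdv4 was at 0 in these 3 gates. Trdc was low, at 5.23 ± 10.5 (Il17a), 1.52 ± 2.08 (Cd8a) and 3.19 ± 3.99 (Gzma) against 2.33 ± 3.42 in the rest gate. In the Ifng gate the summed gamma-delta T cell markers were at 63.5 to 168, overlapping the rest gate. In the Foxp3 gate they were at 7.85 to 51.4, also overlapping it, with a lower mean (25.5 against 68.0). Summed B cell markers were at 38.3 to 45.4 in the Foxp3 gate, nearly all Cd79b, and 8.21 to 11.3 in the rest gate. Stromal or endothelial markers, nearly all Pecam1, were at 18.0 to 24.7 against 42.0 to 44.3. Mast cell markers, mostly Kit, were at 7.85 to 16.9 against 1.15 to 3.55. Summed plasma cell markers (4 genes, led by Jchain and Igha) were at 159 to 789 in the rest gate and below that in the Il17a (14.4 to 31.6), Cd8a (3.32 to 49.6) and Gzma (5.21 to 8.76) gates, with wide ranges in the Foxp3 (7.99 to 1450) and Ifng (7.98 to 1013) gates. Summed naive or central memory markers (5 genes, Tcf7, Klf2 and Lef1 among them) were at 341 to 483 in the rest gate. The sums were lower in every other gate, with 107 to 133 in the Gzma gate and 229 to 312 in the Il17a gate. In the Foxp3 gate the list was mixed. Lef1 was higher there, at 57.5 ± 4.88 against 46.7 ± 6.69 in the rest gate. Tcf7 (38.4 ± 4.89 against 161.4 ± 13.4), Ccr7, S1pr1 and Klf2 (91.1 ± 21.1 against 100.1 ± 12.8) had lower means there. The part of these transcripts in the results was not tested.

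The 7 genes lie on 6 chromosomes of mm10 and are protein-coding. Entpd1 spans chr19:40612366-40741602 on the plus strand, Nt5e chr9:88327197-88372092 on the plus strand and Adora2a chr10:75316877-75334784 on the plus strand. Adk spans chr14:21052574-21448569 on the plus strand, Slc29a1 chr17:45585200-45599606 on the minus strand, and chromosome 2 carries Ada at 163726584 to 163750239 and Dpp4 at 62330073 to 62412231, both on the minus strand. Annotated antisense genes overlap Dpp4 (Gm13561) and Slc29a1 (Gm17080), and a pair of pseudogenes lies inside Entpd1 on its strand. Whether the counting separated strands is not given in the sources used here.

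The sequence before the start of Entpd1 is shown because Entpd1 was the member with the largest difference between gates. RefSeq (GRCm38.p6) gives it 2 start sites, and the sequences below end at the base before each, on the plus strand, with capitals for a match to TGACG on either strand, the core of the cAMP response element. The stretch before the upstream start is chr19:40612231-40612365, 135 bases, and its opening 3 bases lie in an untranslated region of Tctn3, the gene on the other strand. The stretch before the downstream start is chr19:40659520-40659769, 250 bases, in an intron of a longer Entpd1 transcript.
Entpd1 upstream start: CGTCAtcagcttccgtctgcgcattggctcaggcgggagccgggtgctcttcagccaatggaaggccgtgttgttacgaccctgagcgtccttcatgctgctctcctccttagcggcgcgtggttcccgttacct
Entpd1 downstream start: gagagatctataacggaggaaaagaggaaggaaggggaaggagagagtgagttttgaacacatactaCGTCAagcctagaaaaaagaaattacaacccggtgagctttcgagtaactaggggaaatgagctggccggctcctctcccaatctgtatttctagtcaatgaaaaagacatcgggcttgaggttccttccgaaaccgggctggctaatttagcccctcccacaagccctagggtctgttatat

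Over the full 250 bases before each start, TGACG had 1 match at each Entpd1 start, 135 and 183 bases before it, and 17.8% of the 32851 RefSeq windows of that length hold such a match. The complete cAMP response element TGACGTCA was in neither Entpd1 window, nor were the forkhead letters GTAAACA or the Runx letters TGTGGT. Of all windows, 1.55%, 3.17% and 14.1% hold these. The downstream window of Entpd1 was 47.2% G or C and the upstream window 62.4%, beside a median of 52.4% over all windows. The Nt5e window, chr9:88327359-88327608, was 72% G or C and held 4 matches to the GC box GGGCGG on either strand, 2 of which overlap 2 others. At least 1 such match was in 32.7% of windows. The Nt5e window lies wholly within an untranslated region of Nt5e in the GENCODE annotation and is not printed. A match describes the letters only.

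Differences between gates were tested on UMIs summed per library and gate, 24 sums in 1 edgeR quasi-likelihood fit over 9592 genes with library as a block, and p-values were adjusted over all genes by the Benjamini-Hochberg method. A gene is said to be called where its adjusted p is under 0.05. Levels are CPM within the same sum, given for libraries 1 to 4 in that order. In sums, fewer cells that express a gene and less RNA per cell cannot be told apart. All 5 comparisons below use the same rest gate sums.

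In the Foxp3 gate, the genes of both enzymes that make adenosine and of its receptor were higher than in the rest gate. Of the 7 members, 5 were higher (Entpd1, Nt5e, Adora2a, Adk and Slc29a1), Dpp4 was lower and Ada did not pass. This stands beside a background in which 33% of all genes tested were called, 17.9% higher and 15.1% lower. The members' median log2 fold change was 0.50, against -0.01 over all genes tested. The direction of each of the 7 differences was shared by 4 of 4 libraries.

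Entpd1, the CD39 gene, was at 19.4, 23.4, 31.0 and 20.5 CPM in the Foxp3 gate and at 4.35, 5.68, 9.36 and 6.40 CPM in the rest gate. Every Foxp3 sum was above every rest sum. The log2 fold change was 1.92 ± 0.18 (SE), with an edgeR adjusted p of 2.54e-09. Entpd1 was a scarce transcript even there, with 209 UMIs over the 4 Foxp3 sums, but the Foxp3 gate held 21.8% of all Entpd1 UMIs and 9.19% of all UMIs. Nt5e, the CD73 gene, was at 148, 111, 113 and 107 CPM in the Foxp3 gate and at 49.4, 57.7, 53.7 and 55.5 CPM in the rest gate. The groups did not overlap, and library 1 stood above the other Foxp3 sums. Its log2 fold change was 1.18 ± 0.08, with an edgeR adjusted p of 8.42e-12. Without library 1 it was 1.03.

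Adora2a, the receptor gene, was at 187, 192, 153 and 130 CPM in the Foxp3 gate and at 132, 145, 111 and 91.5 CPM in the rest gate. The groups overlapped, because libraries 3 and 4 were lower than libraries 1 and 2 in both gates, but within each library the Foxp3 sum was the higher one. With library as a block, the log2 fold change was 0.49 ± 0.07 and the edgeR adjusted p was 2.01e-06. Receptor transcript was thus also common outside the Foxp3 gate, and 45.3% of all Adora2a UMIs were in the rest gate, which held 46.7% of all UMIs.

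Of the clearance genes, Adk and Slc29a1 were higher in the Foxp3 gate and Ada did not pass. Adk, the adenosine kinase gene, was at 20.3, 21.5, 28.5 and 20.5 CPM in the Foxp3 gate and at 17.4, 15.8, 17.7 and 15.2 CPM in the rest gate. These groups did not overlap, with library 3 well above the other Foxp3 sums. The log2 fold change was 0.47 ± 0.13 (edgeR adjusted p = 0.00514), and without library 3 it was 0.38 and no longer passed (edgeR adjusted p = 0.0529). Slc29a1, the ENT1 gene, was at 47.9, 53.4, 54.4 and 61.9 CPM in the Foxp3 gate against 43.5, 40.4, 40.0 and 45.1 CPM in the rest gate, again with no overlap, and its log2 fold change was 0.38 ± 0.08 (edgeR adjusted p = 0.000488). The Foxp3 gate was deeper, with a median of 4475 UMIs per cell against 3748 in the rest gate. When every cell was thinned to 2000 UMIs before gating, the Slc29a1 log2 fold change was -0.003 (edgeR adjusted p = 0.996).

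Dpp4, the CD26 gene, was at 19.0, 16.9, 22.0 and 18.4 CPM in the Foxp3 gate and at 29.7, 26.5, 23.1 and 28.6 CPM in the rest gate. All Foxp3 sums were below all rest sums, and the log2 fold change was -0.49 ± 0.12 (edgeR adjusted p = 0.00207). It was -0.22 after thinning (edgeR adjusted p = 0.545) and -0.28 without the cells that met several gate conditions (edgeR adjusted p = 0.169), so the call was lost in both settings while the direction stayed the same. Ada, the deaminase gene, gave 374 UMIs in the whole series. It was at 7.44, 4.99, 2.996 and 4.72 CPM in the Foxp3 gate and at 2.68, 4.37, 2.39 and 3.12 CPM in the rest gate, with a log2 fold change of 0.70 ± 0.32 that did not pass (edgeR adjusted p = 0.0996).

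**Figure D1:**
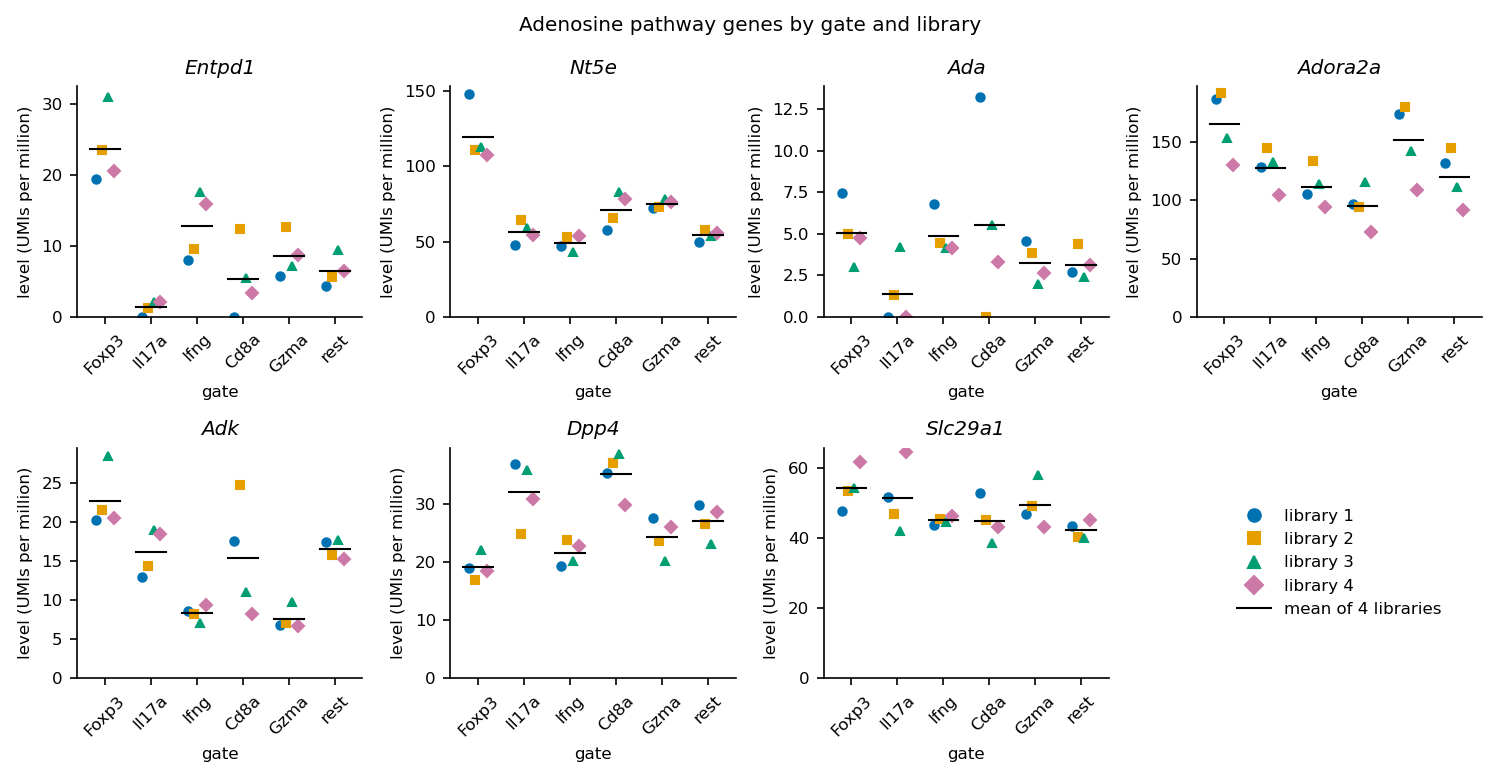
Level of each of the 7 genes (CPM, linear axis from 0) in the 6 gates, with 1 point for each of the 4 libraries and a bar at their mean. Entpd1 was at 19.4 to 31.0 and Nt5e at 107 to 148 in the Foxp3 gate, above the other gates in every library, while the Adora2a points of library 4 were lowest in 6 of 6 gates.

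Against each of the other gates the Foxp3 gate also stood apart for the adenosine-making enzymes. For Nt5e, the log2 difference was 0.73 ± 0.10 from the Gzma gate (edgeR adjusted p = 2.62e-06), 0.82 ± 0.17 from the Cd8a gate (edgeR adjusted p = 0.000678), 1.12 ± 0.12 from the Il17a gate (edgeR adjusted p = 1.16e-07) and 1.34 ± 0.08 from the Ifng gate (edgeR adjusted p = 1.19e-12). For Entpd1 the smallest difference was 0.96 ± 0.17, from the Ifng gate (edgeR adjusted p = 6.36e-05). As background for these and the other pairs of gates, 31.7% of all genes were called between the Foxp3 and Ifng gates, 27.4% between Foxp3 and Il17a, 26% between Foxp3 and Gzma and 19.1% between Foxp3 and Cd8a. Between Il17a and the Ifng, Gzma and Cd8a gates 25.4%, 20.1% and 19.7% were called, and 7.41% between Ifng and Cd8a, 5.11% between Cd8a and Gzma and 4.89% between Ifng and Gzma.

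In the Ifng gate, the CD39 gene was higher and the kinase gene lower than in the rest gate. Of the 7 members 1 was higher, 2 were lower (Adk and Dpp4) and 4 did not pass, beside a background of 10.1% of genes called (5.15% higher, 4.97% lower). Their median log2 fold change was -0.11, against -0.001 over all genes tested. Entpd1 was at 7.98, 9.57, 17.6 and 15.9 CPM in the Ifng gate. Library 1 of the Ifng gate was below library 3 of the rest gate, so the groups overlapped, but in each library the Ifng sum was above its own rest sum, at a log2 fold change of 0.96 ± 0.16 (edgeR adjusted p = 9.58e-05). The Ifng gate held 41.1% of all Entpd1 UMIs, more than the Foxp3 gate, and 32.1% of all UMIs. Naive or central memory markers were lower in the Ifng gate than in the rest gate, at 175 to 204 against 341 to 483 CPM, and their part was not tested.

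Adk was at 8.68, 8.18, 7.13 and 9.38 CPM in the Ifng gate, and every value was below every rest value. The log2 fold change was -0.998 ± 0.12 (edgeR adjusted p = 8.51e-07). Dpp4 was at 19.4, 23.8, 20.2 and 22.8 CPM, overlapping the rest gate, with a log2 fold change of -0.35 ± 0.08 (edgeR adjusted p = 0.0063) that did not pass without library 1 (-0.25, edgeR adjusted p = 0.137) or after thinning (-0.24, edgeR adjusted p = 0.251). Without the library block it was also lost (-0.35, edgeR adjusted p = 0.0501). Nt5e, at 42.9 to 53.4 CPM, and Adora2a, at 94.2 to 133.8 CPM, did not pass, with log2 fold changes of -0.16 ± 0.07 and -0.11 ± 0.06.

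In the Gzma gate, Nt5e and Adora2a were higher and Adk lower. These 3 calls of 7 stand beside a background of 13.6% (7.29% higher, 6.32% lower), and the members' median log2 fold change was 0.21, against -0.003 over all genes tested. Nt5e was at 72.3, 72.8, 78.2 and 75.9 CPM, all above the rest gate, with a log2 fold change of 0.45 ± 0.10 (edgeR adjusted p = 0.00148). Adora2a was at 175, 180.2, 143 and 109 CPM. Its Gzma sums overlapped the rest sums across libraries but were the higher in each library, at 0.32 ± 0.07 (edgeR adjusted p = 0.00218). That call needed the library block, and without it the log2 fold change was 0.33 (edgeR adjusted p = 0.237).

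Adk in the Gzma gate was at 6.89, 7.12, 9.77 and 6.66 CPM, the lowest mean of the 6 gates. All 4 values were under the rest values, with a log2 fold change of -1.14 ± 0.19 (edgeR adjusted p = 8.64e-05). Entpd1 in the Gzma gate, at 5.74, 12.6, 7.17 and 8.66 CPM, did not pass (0.43 ± 0.25). The Adk difference between the Ifng and Gzma gates also did not pass (0.14 ± 0.21, edgeR adjusted p = 0.839). Beside these results, the Gzma gate had more Tcrg-C1 and Tcrg-C2 transcript than the rest gate, as given above. It had less plasma cell and naive or central memory marker transcript.

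In the Il17a gate, Entpd1 was almost undetected, with 0, 1, 1 and 2 UMIs in libraries 1 to 4. These counts correspond to 0, 1.31, 2.11 and 2.05 CPM, all under the lowest rest value, and the fitted log2 fold change was -2.39 ± 0.59 (edgeR adjusted p = 0.00352). With 4 UMIs in all, the call was lost without library 1 (edgeR adjusted p = 0.0519), after thinning (edgeR adjusted p = 0.335) and without cells that met several conditions (edgeR adjusted p = 0.0755), while the direction stayed the same. The Il17a gate was also the deepest, with a median of 5199.5 UMIs per cell. It too had more Tcrg-C1 and Tcrg-C2 and less plasma cell and naive or central memory marker transcript than the rest gate. Of the 7 members, Entpd1 was lower, Slc29a1 was higher (0.37 ± 0.11, edgeR adjusted p = 0.0114) and 5 did not pass, beside a background of 24.7% (14.7% higher, 10.1% lower), and the members' median log2 fold change was 0.06, against -0.03 over all genes tested. Slc29a1 was at 51.7, 47.1, 42.1 and 64.6 CPM, overlapping the rest gate. Its call was lost in 5 of 13 alternatives, and after thinning its log2 fold change was 0.06 (edgeR adjusted p = 0.929). Ada gave 3 UMIs in the Il17a gate and did not pass against the rest gate (edgeR adjusted p = 0.054), but its log2 difference between the Foxp3 and Il17a gates was 2.68 ± 0.74 (edgeR adjusted p = 0.00739). Nt5e, at 47.4 to 64.0 CPM, did not pass against the rest gate (0.06 ± 0.13, edgeR adjusted p = 0.798). With scaling by library size alone in place of TMM, 1164 of 2483 called genes were higher in the Il17a gate, against 1406 of 2370 here, and Entpd1 and Slc29a1 kept their calls.

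In the Cd8a gate 1 of the 7 members was called, Adora2a, which was lower, beside a background of 9.46% (3.7% higher, 5.75% lower). The members' median log2 fold change was 0.001, against -0.02 over all genes tested. Adora2a was at 97.0, 94.7, 116 and 73.0 CPM, with library 3 above its own rest sum and the other libraries below theirs. Its log2 fold change of -0.41 ± 0.12 (edgeR adjusted p = 0.0292) did not pass in 9 of 13 alternatives. The split of all called genes also moved with the scaling, from 355 higher of 907 to 442 of 887 by library size alone and 484 of 982 by DESeq2. No member was called higher by edgeR or by DESeq2, and none that was higher had an unadjusted p under 0.05. The gate is small: it held 6 UMIs of Entpd1 and 6 of Ada, 162 of its 319 cells came from library 4, and it is the gate with up to 2883 CPM of myeloid markers. Dpp4 had its highest mean there, 35.2 ± 3.81 CPM (n = 4), and all 4 sums were above those of the rest gate, but the difference did not pass (0.24 ± 0.22, edgeR adjusted p = 0.664).

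**Figure D2:**
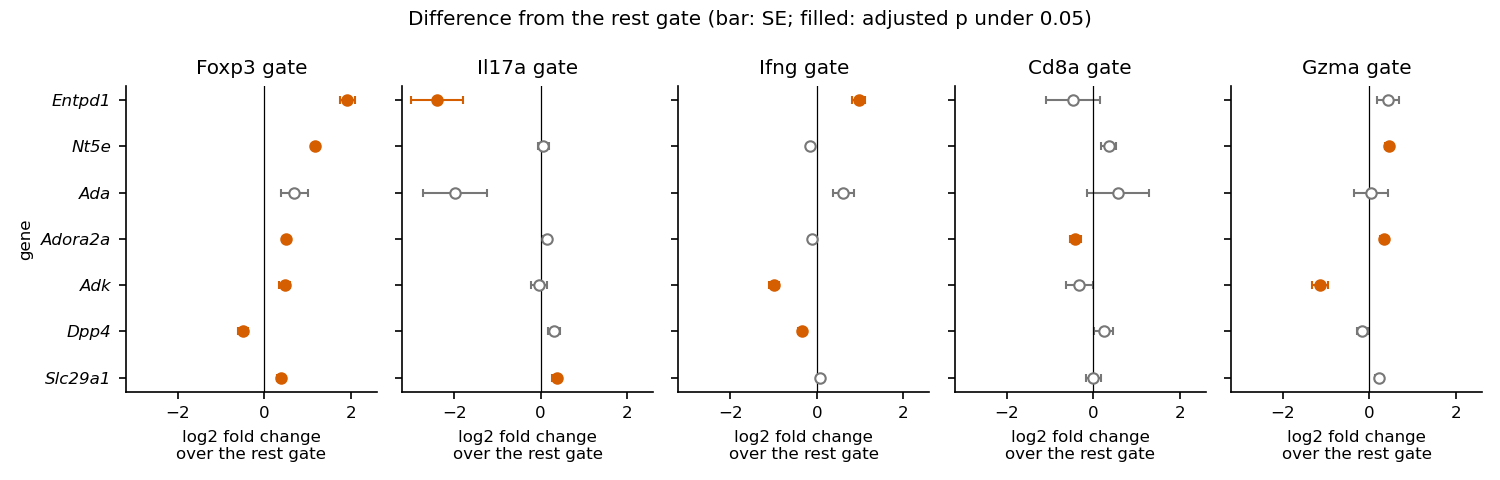
Log2 fold change of each gene in 5 gates over the rest gate, with its standard error; filled points have an edgeR adjusted p under 0.05. The Foxp3 panel has 6 filled points, from -0.49 for Dpp4 to 1.92 for Entpd1, and Adk is at -0.998 and -1.14 in the Ifng and Gzma panels.

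Ordered by mean level, the members ran differently across the gates. Entpd1 fell from the Foxp3 gate (23.6 ± 5.21 CPM) through the Ifng gate (12.8 ± 4.70), the Gzma gate (8.54 ± 2.95), the rest gate (6.45 ± 2.12) and the Cd8a gate (5.29 ± 5.22) to the Il17a gate (1.37 ± 0.98). Of its neighbours in that order, Foxp3 and Ifng differed, and Ifng and Gzma (edgeR adjusted p = 0.254), Gzma and rest (0.308), rest and Cd8a (0.765) and Cd8a and Il17a (0.201) did not pass. Nt5e fell from the Foxp3 gate (119.6 ± 19.0) to the Gzma (74.8 ± 2.75), Cd8a (71.0 ± 11.5), Il17a (56.2 ± 7.09), rest (54.0 ± 3.51) and Ifng (49.0 ± 5.03) gates, and the Foxp3 gate and the Gzma gate were the only neighbours that differed. For Adora2a the Foxp3 gate (165.7 ± 29.3) was followed by the Gzma gate (151.6 ± 32.8), and that difference did not pass (0.17 ± 0.08, edgeR adjusted p = 0.106). Adora2a then ran through the Il17a (127.9 ± 16.9), rest (119.9 ± 23.5) and Ifng (111.8 ± 16.7) gates to the Cd8a gate (95.1 ± 17.5), and none of these neighbours differed.

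Adk ran from the Foxp3 gate (22.7 ± 3.90 CPM) through the rest (16.5 ± 1.19), Il17a (16.2 ± 2.99), Cd8a (15.4 ± 7.33) and Ifng (8.34 ± 0.95) gates to the Gzma gate (7.61 ± 1.45), and of these neighbours Foxp3 and rest differed. Its Il17a gate differed from the Ifng gate (0.96 ± 0.21, edgeR adjusted p = 0.00129) and from the Gzma gate (1.10 ± 0.26, edgeR adjusted p = 0.00317), while the differences of its Cd8a gate from these did not pass (edgeR adjusted p = 0.345 and 0.322). Dpp4 ran the other way for the Foxp3 gate, from the Cd8a (35.2 ± 3.81) and Il17a (32.1 ± 5.52) gates through rest (27.0 ± 2.90), Gzma (24.3 ± 3.2) and Ifng (21.5 ± 2.12) to Foxp3 (19.1 ± 2.13), and no neighbours differed. The ends did, with a log2 difference of -0.73 ± 0.24 between the Foxp3 and the Cd8a gate (edgeR adjusted p = 0.0358), and the Foxp3 and Il17a gates differed by -0.79 ± 0.17 (edgeR adjusted p = 0.00064). Slc29a1 was the flattest of the 7, from 54.4 ± 5.76 in the Foxp3 gate to 42.2 ± 2.47 in the rest gate, and Ada lay between 1.38 ± 1.99 and 5.52 ± 5.62 CPM in every gate.

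Some members also differed between libraries in a way that ran through the gates. Library 1 was lowest for Entpd1 in 6 of 6 gates, and over all cells Entpd1 was at 6.68, 9.21, 13.8 and 10.5 CPM in libraries 1 to 4. Adora2a was highest in library 2 in 5 of 6 gates and lowest in library 4 in 6 of 6, at 131, 149, 119 and 96.5 CPM over all cells. By comparison, Nt5e was even, at 59.0, 63.4, 57.5 and 60.6 CPM, as was Slc29a1, at 44.2 to 47.4. The labels give no batch or other difference between the libraries.

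Shares of cells with at least 1 UMI were compared after thinning each cell to 2000 UMIs and leaving out shallower cells, which kept 1504 of 1533 cells in the Foxp3 gate, 10456 of 10924 in the rest gate and 20752 of 21501 in all. Entpd1 was then found in 4.08% ± 1.13 (SD, n = 4) of the Foxp3 gate, 2.28% ± 0.95 of the Ifng gate, 1.66% ± 0.78 of the Gzma gate, 1.26% ± 0.45 of the rest gate and 0.48% ± 0.57 of the Il17a gate. None of the 295 Cd8a gate cells held one, which allows a share of up to 1.02%, for counting error only. Without thinning, the Foxp3 gate was at 11.8% ± 1.75 and the rest gate at 2.34% ± 0.68. Free RNA gives UMIs in cells that do not express a gene. As a reference for it the lowest gate after thinning was taken, here the Cd8a gate and next the Il17a gate. Without thinning, Entpd1 was in a mean of 1.54% of the Cd8a gate and 0.84% of the Il17a gate. By CPM the Cd8a gate was also the higher, at 5.29 against 1.37, so no order is read between them. The 1.02% limit is for thinned cells only. Before thinning the Cd8a and Il17a gates had medians of 3554 and 5199.5 UMIs per cell, against 4475 in the Foxp3 gate. No gate is known to lack these genes.

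Nt5e was found in 21.1% ± 1.63 of the thinned Foxp3 gate, 15.6% ± 3.39 of the Cd8a gate, 13.1% ± 0.55 of the Gzma gate, 10.4% ± 3.15 of the Il17a gate, 9.86% ± 0.88 of the rest gate and 8.94% ± 1.06 of the Ifng gate. By CPM the Cd8a and Gzma gates stood the other way round, so no order is read between them. Unthinned, Nt5e was in 40.5% ± 3.72 of the Foxp3 gate and 17.6% ± 0.92 of the rest gate. Adora2a was in 28.7% ± 4.67 of the Foxp3 gate, 25.1% ± 5.64 of the Gzma gate, 24.1% ± 4.38 of the Il17a gate, 19.4% ± 3.2 of the rest gate, 18.9% ± 2.86 of the Ifng gate and 17.8% ± 5.02 of the Cd8a gate, the lowest (unthinned, 53.96% ± 5.23 of the Foxp3 gate and 31.3% ± 4.61 of the rest gate). Adk was in 4.10% ± 1.13 of the Foxp3 gate, 3.42% ± 1.28 of the Il17a gate, 2.74% ± 0.31 of the rest gate, 2.26% ± 1.67 of the Cd8a gate, 1.16% ± 0.21 of the Ifng gate and 0.81% ± 0.30 of the Gzma gate, and unthinned in 10.9% ± 1.19 of the Foxp3 gate and 5.63% ± 0.59 of the rest gate. The remaining members were less spread, with Dpp4 between 3.63% ± 1.22 (Foxp3) and 7.79% ± 2.10 (Cd8a), Slc29a1 between 7.11% ± 0.13 (rest) and 9.31% ± 1.81 (Foxp3), and Ada at 1.21% ± 0.57 or less. These shares were not tested.

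**Figure D3:**
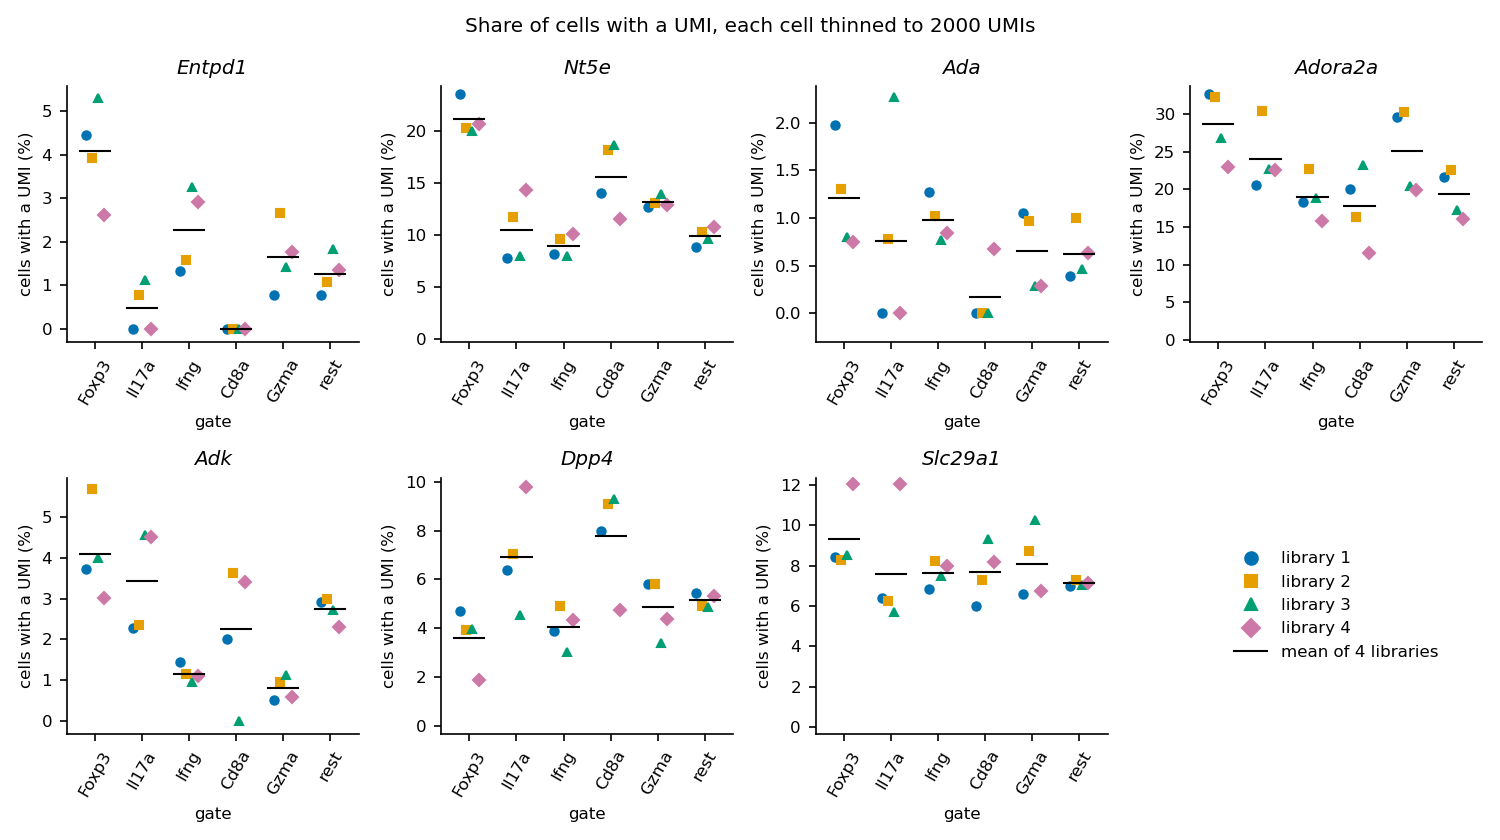
Share of cells with at least 1 UMI of each gene (percent), each cell thinned to 2000 UMIs, in the 6 gates, with 1 point per library and a bar at the mean. The Foxp3 gate has the highest mean for Entpd1 (4.08%), Nt5e (21.1%) and Adora2a (28.7%), and the Gzma gate the lowest for Adk (0.81%).

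Cells that hold transcripts of both Entpd1 and Nt5e could in principle take ATP to adenosine alone, so the transcripts were looked up in the same cell. Among the 20752 thinned cells, 41 held both. The Foxp3 gate had 22 of them, 53.7%, while making up 7.25% of the cells. It also held 17.1% of all thinned cells with Entpd1 and 14.3% of those with Nt5e. In the Ifng gate 8 cells held both, in the rest gate 10, in the Gzma gate 1, and in the Il17a and Cd8a gates 0, out of 568 and 295 cells.

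Within the Foxp3 gate, 22 cells with both compare with 13.3 if the detections were independent within each library, a ratio of 1.65. The libraries were uneven, with 10, 5, 7 and 0 such cells against 4.23, 3.66, 3.99 and 1.45 in libraries 1 to 4. In library 4 none of the 7 Entpd1 cells held Nt5e. With 0.5 added to both numbers, the mean log2 ratio over the 4 libraries was 0.08 ± 1.40 (SD), above 0 in 3 of 4, and an exact two-sided permutation test over the libraries gave p = 1. With 4 libraries that test cannot go below 0.125. Without library 4 the mean was 0.76, and without library 1, 2 or 3 it was -0.27, -0.024 and -0.14. With 3000 UMIs per cell it was 0.22, with an exact permutation p of 0.125. Of the 63 Foxp3 gate cells with Entpd1, 34.9% held Nt5e (exact 95% interval 23.3 to 48.0%, counting error only), against 21.1% of all cells of the gate.

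Without thinning, 89 cells of the Foxp3 gate held both against 71.7 if independent, a ratio of 1.24. The ratio was above 1 in 4 of 4 libraries, with a mean log2 ratio of 0.29 ± 0.13 and an exact permutation p of 0.125, the smallest possible. Cells differed in depth before thinning, and the part of depth in this unthinned ratio was not tested. In the Ifng gate the thinned count of 8 was below the 13.1 of independence and the unthinned count of 68 above its 63.2, and neither differed in the exact permutation test (p = 0.375 in each case). Across all cells together the thinned count was 41 against 39.3. In the Gzma gate the thinned mean log2 ratio was -0.95 ± 0.45, below 0 in 4 of 4 libraries, on 1 cell with both against 3.29 (exact permutation p = 0.125). Since p cannot go below 0.125 with 4 libraries, these tests could not pass in either direction.

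**Figure D4:**
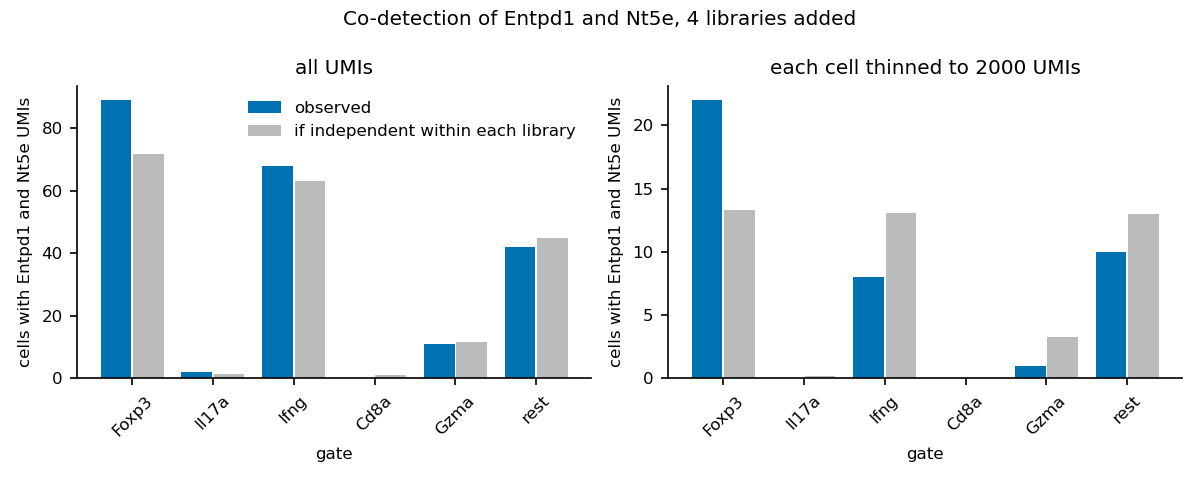
Cells holding UMIs of both Entpd1 and Nt5e in each gate, summed over 4 libraries (blue), beside the number if the 2 were independent within each library (grey), for all UMIs and after thinning each cell to 2000 UMIs. The Foxp3 gate is at 89 against 71.7 with all UMIs and at 22 against 13.3 after thinning, and the other gates lie near or under their grey bars after thinning.

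The number of Foxp3 UMIs in a cell did not order the 2 ectoenzymes. Cells with 1, 2 and 3 or more Foxp3 UMIs (604, 388 and 541 cells) had mean Entpd1 levels of 26.2 ± 6.65, 22.0 ± 4.55 and 22.3 ± 5.37 CPM, and Nt5e levels of 109 ± 25.4, 135 ± 24.1 and 121 ± 13.9 CPM. All these ranges overlap. The split was added after the other results were seen and was not tested.

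Other genes of purine signalling were read from a list of 81, of which 79 were in the files. In the Foxp3 gate 48 were tested, of which 10 were higher and 10 lower, beside a background of 17.9% of all genes higher and 15.1% lower. The list's median log2 fold change was 0.01, against -0.01 over all genes tested. Among the cAMP relay genes 5 of 16 were higher and 6 lower, and the largest differences were in phosphodiesterases, which break down cAMP. Pde7a was at 22.6 ± 6.05 CPM in the Foxp3 gate and 73.8 ± 8.11 in the rest gate (log2 fold change -1.69 ± 0.10, edgeR adjusted p = 7.91e-13), and Pde3b at 33.5 ± 12.1 against 84.3 ± 9.11 (-1.34 ± 0.12, edgeR adjusted p = 2.83e-09).

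Among release and P2 receptor genes, the ATP-gated channel genes P2rx7 and P2rx4 went opposite ways. P2rx7, whose channel responds to high ATP and NAD release, was at 106.3 ± 9.58 CPM in the Foxp3 gate and 176.1 ± 20.3 in the rest gate (-0.70 ± 0.06, edgeR adjusted p = 1.79e-09), and P2rx4 was at 23.6 ± 1.21 against 15.2 ± 1.31 (0.66 ± 0.15, edgeR adjusted p = 0.00136). Of the tested relatives of Entpd1, Entpd5 and Entpd6, which encode nucleoside diphosphatases, were lower, at log2 fold changes of -0.65 ± 0.14 and -0.49 ± 0.10, and Entpd7 did not pass, at 0.40 ± 0.25 (edgeR adjusted p = 0.234). Of the 7 tested ectonucleotidase genes 1 was higher (Enpp4). Among 19 tested purine enzymes 3 were higher, among them the salvage enzyme gene Aprt at 0.25 ± 0.06 and the xanthine dehydrogenase gene Xdh at 0.72 ± 0.23, and 1 was lower, Ahcyl2 at -0.34 ± 0.13. The other adenosine receptor genes gave almost no UMIs: Adora2b and Adora3 were at 0.02 CPM in the rest gate, Adora2b was at 0.13 CPM in the Foxp3 gate, and Adora1 was at 0 in both gates.

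**Figure D5:**
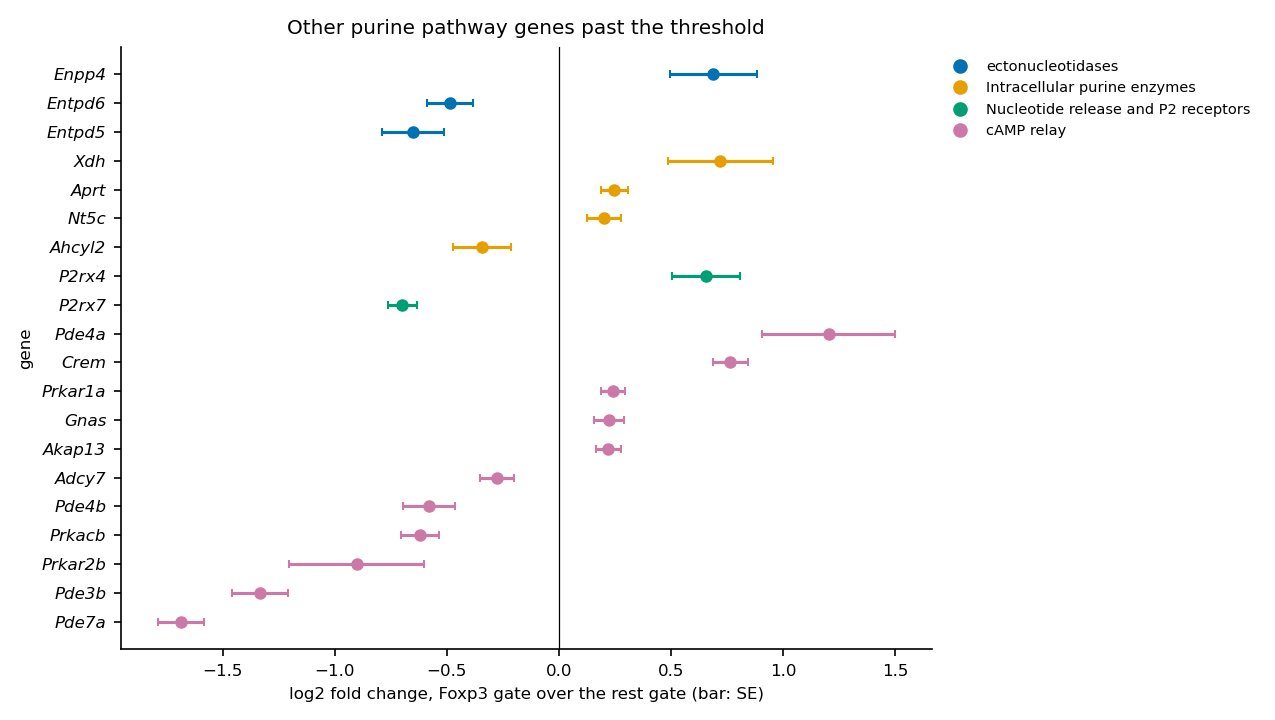
The 20 other purine pathway genes called in the Foxp3 gate over the rest gate, as log2 fold change with its standard error, coloured by group. Phosphodiesterase genes are at both ends, with Pde7a at -1.69 and Pde4a at 1.20, and P2rx7 and P2rx4 lie on opposite sides of 0.

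The same list was read in the other gates, which share the rest gate as reference. In the Il17a gate 10 of 48 were higher and 6 lower, beside a background of 14.7% and 10.1%, and the purine enzymes accounted for 6 of the higher and none of the lower, with Hprt, the purine salvage enzyme, at 0.46 ± 0.07 (edgeR adjusted p = 1.01e-05) and Nt5c3b, a cytosolic nucleotidase, at 0.49 ± 0.09 (edgeR adjusted p = 0.000143). Art2b, a surface enzyme that uses NAD to modify proteins such as P2X7, was at 56.1 ± 6.25 CPM against 126.3 ± 21.8 (-1.12 ± 0.10, edgeR adjusted p = 4.57e-09), and Adcy7, an adenylyl cyclase, was lower, at -0.76 ± 0.11 (edgeR adjusted p = 7e-06). In the Ifng gate 2 of 48 were higher and 1 lower, beside 5.15% and 4.97% of all genes. Cd38, which consumes NAD at the cell surface, was at 151.7 ± 18.2 against 91.1 ± 10.2 CPM (0.72 ± 0.07, edgeR adjusted p = 5.44e-08). Cd38 was also higher in the Gzma gate (0.62 ± 0.08, edgeR adjusted p = 2.84e-06), where 6 were higher and 2 lower, beside 7.29% and 6.32%. There the concentrative nucleoside transporter gene Slc28a2 was at 66.8 ± 5.07 against 53.2 ± 1.03 CPM (0.31 ± 0.08, edgeR adjusted p = 0.00979). In the Cd8a gate 2 were higher and 4 lower, beside 3.7% and 5.75%, with P2rx7 among the lower (-0.50 ± 0.10, edgeR adjusted p = 0.000611).

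Genes whose levels ran most like each member's were taken by Pearson's r of library-centred log2 CPM over the 24 sums, among 5503 or 5504 genes with a mean of at least 20 CPM. The sums share libraries and gates, so r is a description. For Adora2a the nearest were Crlf2, a subunit of the TSLP receptor (r = 0.93), Tnfrsf1b, the TNF receptor 2 gene (0.90), and Crem, a transcriptional modulator in the cAMP pathway (0.89). Crem was at 208.3 ± 21.6 CPM in the Foxp3 gate, 155.8 ± 30.1 in the Gzma gate, 125.8 ± 27.4 in the rest gate and 82.7 ± 30.9 in the Cd8a gate, which is the order of Adora2a in those gates. For Nt5e they were Rcsd1 (0.92), Mdh1 (0.87) and Serpinb6a (0.87). For Entpd1 they were Fcho2 (0.93), Sdcbp2 (0.91) and Ifi209 (0.90), each with its lowest mean in the Il17a gate, as Entpd1 had. The genes were picked by r over these same sums, and Entpd1 had only 4 UMIs in the Il17a gate and 6 in the Cd8a gate. Adk ran closest to Klf2, a factor of quiescent and recirculating T cells (0.79), nearly tied with Mia2 (0.789) and Mgat5 (0.773). Klf2 was at 100.1 ± 12.8 CPM in the rest gate, 91.1 ± 21.1 in the Foxp3 gate and 85.7 ± 20.3 in the Il17a gate. In the Cd8a gate it was at 48.2 ± 29.0, in the Ifng gate at 47.3 ± 10.8 and in the Gzma gate at 19.5 ± 9.11. Unlike Adk, Klf2 had its highest mean in the rest gate, and its Cd8a mean was near that of the Ifng gate. Mia2 (130.2 ± 14.5 CPM) and Mgat5 (66.6 ± 7.51 CPM) had their highest means in the Foxp3 gate, as Adk had. For Dpp4 the nearest were Rexo2 (0.84), Dap (0.83) and Ndufb10 (0.83), and for Slc29a1 Isy1 (0.79), Prkar1a (0.755) and Smc4 (0.749). Ada's were Esyt2 (0.83), Nr1h2 (0.79) and Lrch3 (0.787), and Ada's rank rests on a few UMIs per sum.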

How the data were processed

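Gene expression was measured in single CD4 T cells in 4 libraries of 1 group. The authors deposited a matrix of raw UMI counts for each library. The submitters' processing notes name Cell Ranger 3.0.2 and the build mm10, without parameters, and all values were whole numbers. The matrices held 22904 barcodes, and since the lowest held 502 UMIs, barcodes had been filtered before deposit.

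A cell was kept with 500 or more genes, 1000 or more UMIs and no more than 10% of UMIs from mitochondrial genes (22534 cells). Doublets were ranked with Scrublet in scanpy 1.11.5, and the top 0.8% per 1000 barcodes of each library were dropped (1033). UMIs were summed per library and gate and tested with edgeR 4.0.16 (TMM, filterByExpr, glmQLFit and glmQLFTest, library as a block). Alternatives were DESeq2 1.42.0, library-size scaling, no low-count filter, no block, each library left out, other cell filters, thinning to 2000 UMIs, gates at 2 UMIs, and cells of several gates left out. Sums of the same library tended to deviate together from the gate means (median r 0.14, from 0.001 to 0.53, over 60 pairs). Between libraries the median r was -0.03. What gives rise to this pairing was not tested. The fitting script was tested on simulated data.

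Named were all 7 members, per comparison the 3 other pathway genes with the smallest adjusted p and at most 2 per group, the figure's called genes, and the 3 genes nearest each member by r. The members, gates, lists and motifs were chosen with earlier results of these data known. Gene positions came from GENCODE M21, which matched 30934 of 31053 gene IDs. RefSeq promoter windows were found for 6 of the 7 members, not for Adora2a. Some planned comparisons and listed genes are not reported here.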

Additional observations from a re-analysis of the deposited data

Results flagged for a closer look

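In 4 of the 42 groups of 4 libraries (7 genes in 6 gates), 1 library lay farther from the others than Dixon's 95% limit allows. Chance alone gives about 1 in 20 groups. Nt5e in the Foxp3 gate was at 147.95 CPM in library 1, against 107 to 113 in the other libraries. Adk was highest in library 3 both in the Foxp3 gate, at 28.5 CPM against 20.3 to 21.5, and in the Gzma gate, at 9.77 CPM against 6.66 to 7.12. Ada in the Ifng gate was at 6.80 CPM in library 1, against 4.13 to 4.44. The cause was not tested.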

How the results depend on the processing

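Of the 15 member results that passed, 170 of 195 alternative values kept direction and call, 24 kept the direction only and 1 reversed. Entpd1, Nt5e and Adora2a in the Foxp3 gate kept both in every alternative run (1.79 to 1.99, 1.03 to 1.49 and 0.46 to 0.75), as did Entpd1 and Adk in the Ifng gate and Nt5e and Adk in the Gzma gate. Counts of called genes moved by over 1.5 times as follows. Without the replicate block they were 356 (Ifng) and 787 (Gzma). Thinning left 1728 (Foxp3), 613 (Il17a), 550 (Cd8a) and 845 (Gzma), and leaving out cells that met several conditions 1386 (Il17a), 548 (Ifng) and 317 (Cd8a). Leaving out each library in turn gave 1577 to 2037 (Il17a), 636 to 812 (Ifng) and 869 to 1131 (Gzma). Of these ranges, only the lowest count in each gate moved by over 1.5 times. The Foxp3 co-detection mean ran from -0.27 without library 1 to 0.76 without library 4, and without library 2 or 3 it was also below 0. Called results lost their call as given in the report. The 1 that reversed was Slc29a1 in the Foxp3 gate after thinning, at -0.0029. Of 245 alternative values of the 20 results that did not pass, 6 passed and 17 reversed. Those that passed were Ada, lower in the Il17a gate (3), Nt5e, lower in the Ifng gate (2), and Slc29a1, higher in the Gzma gate (1). The reversals were as follows. Library size alone gave Nt5e -0.00029 (Il17a). No filter gave Slc29a1 -0.045 (Cd8a). Thinning gave Nt5e -0.17 and Adk 0.33 (Il17a), Adora2a 0.016 and Slc29a1 -0.084 (Ifng) and Slc29a1 -0.035 (Gzma). Leaving out cells that met several conditions gave Adk 0.016 (Il17a), and Entpd1 0.53, Ada -0.71, Adk 0.039 and Slc29a1 -0.0040 (Cd8a). Gates at 2 or more UMIs gave Nt5e -0.017 (Il17a). Unthinned co-detection in the Ifng gate was 0.12. Leaving out each library in turn gave both signs for Adk, -0.18 to 0.13 (Il17a), and for Adk, -0.63 to 0.051, and Slc29a1, -0.031 to 0.082 (Cd8a). The cause was not tested. Without thinning 40 of 42 shares moved, since deeper cells hold more UMIs. Counts were low for Ada, with 374 UMIs, and for Entpd1 in the Il17a and Cd8a gates, with 4 and 6.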
